A study of Mus musculus with 6 samples.

Results

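The Wnt signalling genes described here are 51 genes for Wnt ligands, their receptors and co-receptors, secreted antagonists, the R-spondin axis, cytoplasmic transducers and transcription factors of the pathway. They were chosen by gene symbol, with no measured value in the rule but with earlier results of these data known. All 51 were found among the 24421 genes of the deposited count table, and 47 of them were among the 13479 genes with enough reads to be tested. The table came from a study of the blood-labyrinth barrier, the capillary barrier of the inner ear, in *Nhe6*-knockout mice. The stria vascularis, the vascularised tissue of the cochlear lateral wall, was dissected with the spiral ligament of the same wall. The donors were *Nhe6*-knockout mice and wildtype mice on postnatal days 10 to 12. Endothelial cells of the dissected tissue were grown as untreated primary cultures. The labels give both genotypes the strain background C57BL/6N, whereas the methods describe a line backcrossed to C57BL/6J, so the substrain is uncertain. The knockout is a targeted disruption of the germ line, so every cell of the donor mice carried it. Each of the 3 *Nhe6*-knockout and 3 wildtype libraries came from 1 culture of cells pooled from several mice and purified by cell sorting, so that the replicates differ by culture and not by single animal.

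Wnt proteins are lipid-modified, secreted ligands that bind Frizzled receptors together with the co-receptors LRP5 and LRP6. In the canonical branch, receptor binding stops a cytoplasmic complex of axin, APC and GSK3 from marking β-catenin for destruction, and β-catenin then acts in the nucleus with TCF and LEF transcription factors; in other branches, receptors such as ROR1, ROR2 and RYK act on cell polarity and movement. In endothelial cells of the brain and retina, canonical signalling through FZD4, LRP5, LRP6 and their partners is known to induce and maintain barrier properties.

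The libraries held 25587097 to 29126232 reads within genes. Values are given below as normalized reads (reads scaled to the mean effective library size), in the order of replicates 1 to 3 of each genotype. Libraries within a genotype were not equally alike. *Nhe6*-knockout replicates 1 and 2 differed from each other far less than any other pair of libraries (chi-square per degree of freedom 4.91, against 90.1 to 398 for the other pairs) but by more than sampling noise, and were kept as separate libraries. Wildtype replicate 2 stood apart on the first principal component of all genes, which held 50.2% of the variance, at 106 against values from -28.5 to -6.52 for the others. That library also had the highest summed reads of the 15 fibroblast markers (329361, against 221802 to 288597 elsewhere) and of the 15 mural cell markers (40306, against 21669 to 27500.5), and the lowest of the 15 macrophage markers (144, against 1595 to 4057). All 15 fibroblast markers averaged at least 100 normalized reads in these libraries, and 7 of 20 endothelial markers did, with summed endothelial reads of 16898 to 25983 in *Nhe6*-knockout and 16013 to 23803 in wildtype libraries. Of the 20 endothelial markers, 10 had enough reads to be tested, 6 with negative and 4 with positive log2 fold changes. Among the 20, *Cldn5* and *Robo4* had no read and *Pecam1* had at most 7.82 normalized reads. *Cdh5*, the gene for VE-cadherin, had 179 to 232 in *Nhe6*-knockout and 2509.8 to 5197 in wildtype libraries. Summed reads of 16 cell cycle genes were higher in every *Nhe6*-knockout library (8339 to 14958) than in every wildtype library (2677 to 3964), the one marker list of those examined whose sums did not overlap between the genotypes. The part of these differences in the results below was not tested, apart from the values given without wildtype replicate 2. In bulk RNA, fewer cells of a type and less RNA per cell cannot be told apart.

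The promoters of 5 of the genes whose reads separated the genotypes, or nearly so, are shown to give the sequence upstream of them. Each window holds the 250 bases before the RefSeq start on GRCm38.p6, written 5′ to 3′ along the gene. Capitals mark a match to the TCF/LEF core sequence, searched as CTTTGAA or CTTTGAT on both strands. *Axin2* (chr11:108920099-108920348, plus strand), *Lgr4* (chr2:109917397-109917646, plus strand), *Rspo1* (chr4:124986180-124986429, plus strand) and *Wnt16* (chr6:22287977-22288226, plus strand) were lower in the *Nhe6*-knockout libraries, and *Wnt11* (chr7:98834862-98835111, plus strand) was the gene with the highest log2 fold change. *Dkk3*, the gene with the lowest p, is named only.
Axin2: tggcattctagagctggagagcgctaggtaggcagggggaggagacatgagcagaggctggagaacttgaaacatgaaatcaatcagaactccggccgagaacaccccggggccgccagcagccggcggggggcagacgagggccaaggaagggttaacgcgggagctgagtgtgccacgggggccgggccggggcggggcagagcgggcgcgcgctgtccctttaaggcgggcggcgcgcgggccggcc
Lgr4: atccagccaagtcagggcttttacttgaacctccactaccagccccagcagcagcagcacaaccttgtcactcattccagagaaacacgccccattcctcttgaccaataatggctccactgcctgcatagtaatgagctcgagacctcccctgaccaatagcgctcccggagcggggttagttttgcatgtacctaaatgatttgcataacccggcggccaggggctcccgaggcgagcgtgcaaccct
Rspo1: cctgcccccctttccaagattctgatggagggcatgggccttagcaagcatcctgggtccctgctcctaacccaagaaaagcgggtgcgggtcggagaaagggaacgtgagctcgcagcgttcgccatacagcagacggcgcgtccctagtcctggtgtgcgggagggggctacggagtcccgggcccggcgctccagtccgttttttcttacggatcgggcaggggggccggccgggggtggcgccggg
Wnt16: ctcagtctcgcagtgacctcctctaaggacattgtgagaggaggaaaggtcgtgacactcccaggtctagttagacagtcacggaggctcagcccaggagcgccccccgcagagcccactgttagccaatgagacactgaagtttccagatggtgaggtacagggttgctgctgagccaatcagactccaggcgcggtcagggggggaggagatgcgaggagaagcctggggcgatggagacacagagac
Wnt11: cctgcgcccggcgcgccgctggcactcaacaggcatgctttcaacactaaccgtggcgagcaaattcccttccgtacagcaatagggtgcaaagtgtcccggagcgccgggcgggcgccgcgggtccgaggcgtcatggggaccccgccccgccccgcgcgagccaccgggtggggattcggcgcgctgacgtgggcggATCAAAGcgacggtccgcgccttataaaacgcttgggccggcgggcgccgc
The printed *Wnt11* window held ATCAAAG, the reverse complement of one searched form, 51 bases before the start. A further *Wnt11* window (chr7:98838595-98838844) held no match and is not printed. The other 4 printed windows held no match. Nor did the windows of *Ror1* and *Ryk*, which also separated the genotypes and are not printed. Of 43 windows found for 34 of the 51 genes, 3 held the motif (6.98%; *Dkk1*, *Wnt5b* and *Wnt11*), against 7.48% of all 32851 windows in the RefSeq table. The median GC content of the Wnt gene windows was 64.4%, against 52.4% over all windows. A match is a sequence description and not a measured binding site.

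None of the 47 tested genes passed an adjusted p of 0.05 with edgeR, where 9 of all 13479 genes (0.0668%) did; limma-voom called none, and the Wald test of DESeq2 called 2 (*Dkk3* and *Lgr4*), against 4.65% of all genes. At an unadjusted p under 0.05, edgeR gave 7 Wnt genes, 14.9% of those tested against a background of 11.8%: 6 with lower normalized reads in *Nhe6*-knockout cells (*Dkk3*, *Lgr4*, *Axin2*, *Wnt16*, *Rspo1* and *Fzd6*; background 5.71%) and 1 with higher (*Wnt11*; background 6.14%). In 7 genes the genotypes did not overlap (14.9% against 19.9% of all genes tested), with 6 lower in every *Nhe6*-knockout library (*Dkk3*, *Lgr4*, *Axin2*, *Wnt16*, *Rspo1* and *Ryk*; background 9.54%) and 1 higher (*Ror1*; background 10.4%). The share at an unadjusted p under 0.05 was near that of all genes, and the share without overlap was below it. Of the 47 genes, 29 had negative and 18 positive log2 fold changes, and their median was -0.23, against -0.02 over all genes. Over the 15 alternative analyses the median of the Wnt genes tested in each ranged from -0.25 to -0.00. It was -0.11 over the 48 tested without wildtype replicate 2. The 4 genes that were not tested were *Wnt7b* (at most 28.8 normalized reads in a library), *Wnt10b* (at most 6.19), *Dkk1* (at most 2.93) and *Sfrp5* (a single read in wildtype replicate 2, none elsewhere).

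Levels between genes were compared as normalized reads per kilobase of exon and per 1000000 reads. On this scale *Dkk3* was the most abundant Wnt gene in every library, with a mean level of 273 over the 6 libraries, and its lowest library (163) lay above the highest library of any other member. The Frizzled genes *Fzd7* (mean level 90.2, range 57.5 to 148) and *Fzd1* (60.6, range 30.6 to 78.1) followed, then the ligand *Wnt2b* (53.6), the co-receptors *Lrp6* (42.3) and *Ryk* (40.2), the antagonist *Sfrp1* (23.3), the receptor *Ror1* (22.0) and the ligand *Wnt5a* (20.8). The ranges of *Fzd7* and *Fzd1* overlapped, as did those of *Lrp6* (27.4 to 55.9) and *Ryk* (36.4 to 48.4), so that the order within these pairs is not larger than their spread. The level of *Wnt2b* ranged from 3.04 in wildtype replicate 2 to 108 in wildtype replicate 1. This range enclosed that of *Wnt5a* (15.4 to 25.0), so the order of these ligands by mean did not hold in every library. At the other end, the tested genes *Wnt11* (0.592), *Lef1* (0.582), *Dkk2* (0.461), *Wnt4* (0.200) and *Lgr5* (0.0733) all had mean levels under 1.

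**Figure D1:**
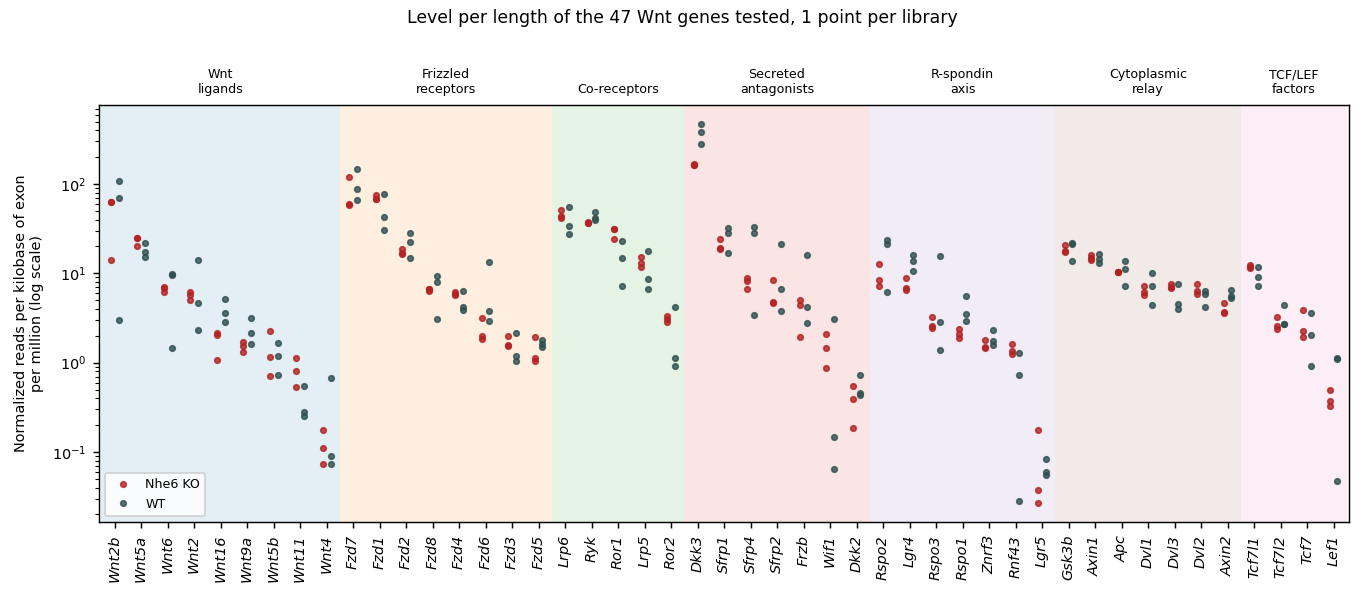
Level per length (normalized reads per kilobase of exon and per 1000000 reads, log axis) of the 47 tested Wnt genes, arranged by role, with a red point for each of 3 *Nhe6*-knockout and a dark point for each of 3 wildtype libraries. *Dkk3* sits above every other gene in all 6 libraries, from 163 to 475, and *Lgr5* is the lowest with a mean of 0.0733.

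Among the ligands, 9 of 11 were tested, 6 with negative and 3 with positive log2 fold changes (median -0.31, and -0.45 over the 10 ligands tested without wildtype replicate 2). *Wnt16* (chr6:22288227-22298522), a ligand studied mainly in bone and blood stem cell formation, had 257, 246 and 129.7 normalized reads in the *Nhe6*-knockout replicates and 431, 625 and 345 in the wildtype replicates. Every *Nhe6*-knockout library lay below every wildtype library. This gave a log2 fold change of -1.15 (SE 0.35, edgeR adjusted p = 0.27), or 2.21-fold more in wildtype cells. *Wnt11* (chr7:98835112-98855195), a ligand of the β-catenin-independent branch, had 61.6, 92.0 and 129 normalized reads in the *Nhe6*-knockout replicates and 32.3, 28.9 and 62.1 in the wildtype replicates. The genotypes met at their edges, because wildtype replicate 3 lay just above *Nhe6*-knockout replicate 1. Its log2 fold change of 1.20 (SE 0.45, edgeR adjusted p = 0.38) was the highest of the 47 genes. A processed pseudogene on the opposite strand overlaps its exons, and the strand setting of the counting is not given in the sources used here. *Wnt5a*, the ligand of ROR receptors, was the second most abundant ligand by mean level per length. Its normalized reads ranged from 4391 to 5388 in *Nhe6*-knockout and from 3331 to 4699 in wildtype libraries. These ranges overlapped (log2 fold change 0.35, SE 0.17, edgeR adjusted p = 0.48). *Wnt2b*, the ligand with the highest mean level per length, had 7380.3, 7352 and 1642 normalized reads in the *Nhe6*-knockout replicates. In the wildtype replicates it had 12457, 353 and 8049.6. Its spread within each genotype exceeded the difference between them (log2 fold change -0.35, SE 1.12), and the sign of that difference changed in 3 of 15 alternative analyses.

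Of the 8 Frizzled receptors, which are 7-transmembrane proteins that bind Wnts through an extracellular cysteine-rich domain, 5 had negative and 3 positive log2 fold changes (median -0.16, and -0.30 without wildtype replicate 2). The genotypes overlapped in all 8. *Fzd6* (chr15:39006034-39038188), a receptor known for planar cell polarity of hair follicles and inner ear cells, had 247, 264 and 419 normalized reads in *Nhe6*-knockout and 392, 1768 and 507 in wildtype replicates. A gene on the opposite strand overlaps the exons of *Fzd6*, as also for *Rspo3* and *Lef1* below. Wildtype replicate 2 was far above all other libraries, and *Nhe6*-knockout replicate 3 lay above wildtype replicate 1. The log2 fold change was -1.52 (SE 0.61, edgeR adjusted p = 0.41) and became -0.54 without wildtype replicate 2. *Fzd4*, the Frizzled of retinal and brain barrier endothelium, had 1062 to 1142 normalized reads in *Nhe6*-knockout and 728 to 1163 in wildtype libraries (log2 fold change 0.30, SE 0.20). *Fzd7* and *Fzd1*, the most abundant Frizzled genes per length, had log2 fold changes of -0.36 (SE 0.41) and 0.49 (SE 0.34), that of *Fzd7* turning to 0.02 without wildtype replicate 3.

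All 5 co-receptors and single-pass receptors were tested, with 4 positive and 1 negative log2 fold change (median 0.28, and 0.60 without wildtype replicate 2). *Ror1* (chr4:100095791-100444765), which encodes a receptor tyrosine kinase-like protein that binds WNT5A, had 4989, 4958 and 3819 normalized reads in the *Nhe6*-knockout replicates and 2379, 1149 and 3669 in the wildtype replicates. All *Nhe6*-knockout libraries were above all wildtype libraries, by a narrow margin between *Nhe6*-knockout replicate 3 and wildtype replicate 3. As a log2 fold change this was 0.94 (SE 0.40, edgeR adjusted p = 0.43). *Ryk* (chr9:102834917-102908305), which encodes a Wnt receptor with a kinase domain that lacks activity, had 4726, 4576 and 4550.3 normalized reads in *Nhe6*-knockout and 5232, 6056 and 4996 in wildtype replicates. The genotypes did not overlap, but the difference was small, with a log2 fold change of -0.23 (SE 0.12, edgeR adjusted p = 0.52). *Lrp6*, which had more reads than its relative *Lrp5* per length, ranged from 15873 to 19305 normalized reads in *Nhe6*-knockout and from 10316 to 21093 in wildtype libraries. *Lrp5* ranged from 3192 to 4078 and from 1802 to 4802. Both LRP co-receptors overlapped between genotypes and spread more widely among the wildtype libraries. Wildtype replicate 2 was the lowest library for *Lrp6* and the highest for *Lrp5*. Because *Nhe6*-knockout replicates 1 and 2 were nearly alike over all genes, the narrower *Nhe6*-knockout ranges rest on few independent values.

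**Figure D2:**
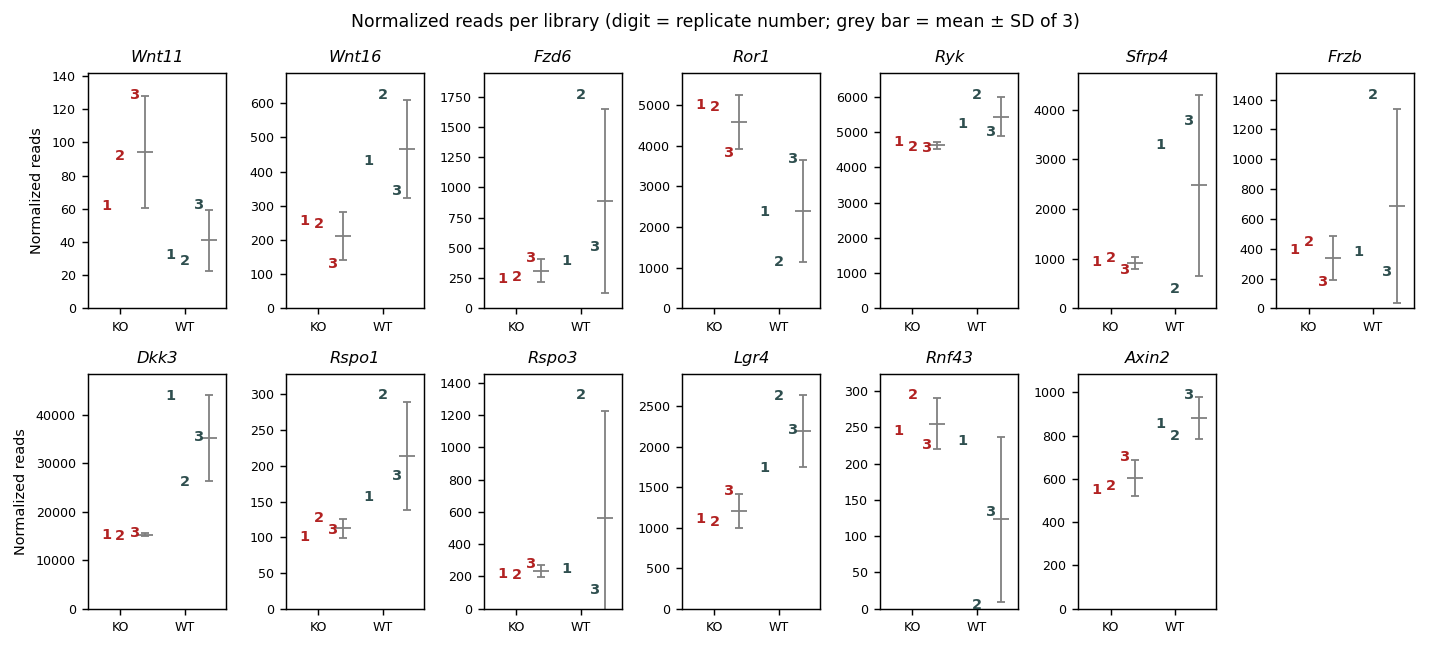
Normalized reads of 13 Wnt genes in each library, 1 panel per gene with its own axis from 0, digits marking the replicate number and grey bars the mean ± SD of 3 libraries (the lower end of the wildtype bar of *Rspo3* falls below 0 and is not drawn). *Dkk3*, *Lgr4*, *Axin2*, *Rspo1*, *Wnt16*, *Ryk* and *Ror1* show no overlap between genotypes, whereas wildtype replicate 2 alone is high for *Fzd6*, *Frzb* and *Rspo3* and low for *Sfrp4* and *Rnf43*.

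Secreted antagonists keep Wnts from their receptors: the SFRP proteins, FRZB and WIF1 bind Wnts directly, and the DKK proteins bind LRP5 and LRP6, apart from the divergent member DKK3. Of 9 antagonist genes 7 were tested, 6 with negative and 1 with a positive log2 fold change (median -0.84, and -0.55 without wildtype replicate 2). *Dkk3* (chr7:112116017-112159057) had 15146, 15109 and 15621 normalized reads in the *Nhe6*-knockout replicates and 43977, 26172 and 35553 in the wildtype replicates. The *Nhe6*-knockout libraries were close together at 15292 ± 286 (SD, n = 3), and all wildtype libraries were higher, at 35234 ± 8907 (SD, n = 3). The log2 fold change of -1.20 (SE 0.23) corresponded to 2.30-fold more reads in wildtype cells, with an adjusted p of 0.11 in edgeR (1.62e-05 to 0.53 over the 15 alternatives). It was past the threshold with DESeq2 (adjusted p = 1.62e-05) and in edgeR without wildtype replicate 2 (log2 fold change -1.38, adjusted p = 0.0205), but not when *Nhe6*-knockout replicates 1 and 2 were summed as 1 library (adjusted p = 0.51). *Sfrp4* (chr13:19623104-19632994) had 944, 1010.3 and 774 normalized reads in *Nhe6*-knockout and 3280.5, 399 and 3769 in wildtype replicates. Wildtype replicates 1 and 3 were well above the *Nhe6*-knockout libraries, and wildtype replicate 2 was below them. In the fit of all 6 libraries the log2 fold change was -1.45 (SE 0.73, edgeR adjusted p = 0.50). *Frzb* (chr2:80411970-80447625) had 394, 447 and 174 normalized reads in *Nhe6*-knockout and 379, 1434 and 247 in wildtype replicates. It was high in wildtype replicate 2 alone, and its log2 fold change of -1.02 (SE 0.71) turned to 0.11 without that library. The remaining tested antagonists, *Sfrp1*, *Sfrp2*, *Dkk2* and *Wif1*, overlapped between the genotypes.

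R-spondins are secreted proteins that bind LGR receptors and thereby hold back ZNRF3 and RNF43, the ubiquitin ligases that remove Frizzled receptors from the cell surface. All 7 genes of this axis were tested, 5 with negative and 2 with positive log2 fold changes (median -0.85, and -0.36 without wildtype replicate 2). *Lgr4* (chr2:109917647-110014257), the R-spondin receptor with the higher level, had 1111, 1068 and 1453 normalized reads in the *Nhe6*-knockout replicates and 1740.0, 2632 and 2213 in the wildtype replicates. Every *Nhe6*-knockout library lay below every wildtype library. The log2 fold change was -0.86 (SE 0.20, edgeR adjusted p = 0.17), or 1.81-fold more in wildtype cells, and the adjusted p was 0.0136 with DESeq2. *Rspo1* (chr4:124986430-125009099) had 99.8, 126 and 111 normalized reads in *Nhe6*-knockout and 156, 299 and 185 in wildtype replicates. The genotypes were again separate, with a log2 fold change of -0.93 (SE 0.31, edgeR adjusted p = 0.32). *Rspo3* (chr10:29452416-29535867), known for its part in vascular development, had 217, 208 and 279 normalized reads in *Nhe6*-knockout and 245, 1325 and 118 in wildtype replicates. Wildtype replicate 2 alone was high, and the log2 fold change of -1.26 (SE 0.85) turned to 0.36 without it. *Rnf43* (chr11:87662722-87735539) had 245, 295 and 225 normalized reads in the *Nhe6*-knockout replicates and 232, 5.16 and 133 in the wildtype replicates. It was nearly absent from wildtype replicate 2, and its log2 fold change of 1.05 (SE 0.99) became 0.48 without that library. *Znrf3*, the other ligase, had 319.7 to 394 and 341 to 502 normalized reads, which overlapped (log2 fold change -0.24, SE 0.20). *Lgr5*, the stem cell marker, had at most 50.2 normalized reads in any library.

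Of the 7 cytoplasmic transducers, 4 had negative and 3 positive log2 fold changes (median -0.02, and 0.09 without wildtype replicate 2). *Axin2* (chr11:108920349-108950783), a scaffold of the β-catenin destruction complex that is itself a widely used target gene of canonical signalling, had 548, 566 and 699.7 normalized reads in *Nhe6*-knockout and 855, 798 and 988 in wildtype replicates. The genotypes did not overlap. They differed by a log2 fold change of -0.54 (SE 0.16, edgeR adjusted p = 0.26), or 1.46-fold more in wildtype cells, and -0.61 without wildtype replicate 2. An antisense gene overlaps its exons, and reads of both genes cannot be told apart without the strand setting. Its paralog *Axin1* differed little, with 1476 to 1681 normalized reads in *Nhe6*-knockout and 1382 to 1734 in wildtype libraries (log2 fold change 0.02, SE 0.13). Log2 fold changes of *Apc* and *Gsk3b*, the other core genes of the destruction complex, were -0.05 (SE 0.23) and -0.02 (SE 0.20), and those of *Axin1*, *Apc*, *Gsk3b* and *Dvl1* changed sign in at least 1 alternative analysis. The Dishevelled genes *Dvl1*, *Dvl2* and *Dvl3*, which relay the signal from Frizzled receptors, had log2 fold changes of -0.19 (SE 0.30), 0.27 (SE 0.20) and 0.41 (SE 0.25).

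The 4 TCF/LEF transcription factors overlapped between genotypes (median log2 fold change 0.01, and -0.03 without wildtype replicate 2). *Lef1* had 91.4, 79.9 and 121 normalized reads in the *Nhe6*-knockout replicates and 267, 11.3 and 275 in the wildtype replicates. As for *Sfrp4*, wildtype replicates 1 and 3 were high and wildtype replicate 2 was the lowest library (log2 fold change -0.92, SE 0.95). *Tcf7l1*, the most abundant TCF gene per length, had 1233 to 1353 normalized reads in *Nhe6*-knockout and 791 to 1265 in wildtype libraries (log2 fold change 0.35, SE 0.19). *Tcf7* and *Tcf7l2* had log2 fold changes of 0.30 (SE 0.53) and -0.28 (SE 0.25), and that of *Tcf7* turned to -0.07 without wildtype replicate 2.

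**Figure D3:**
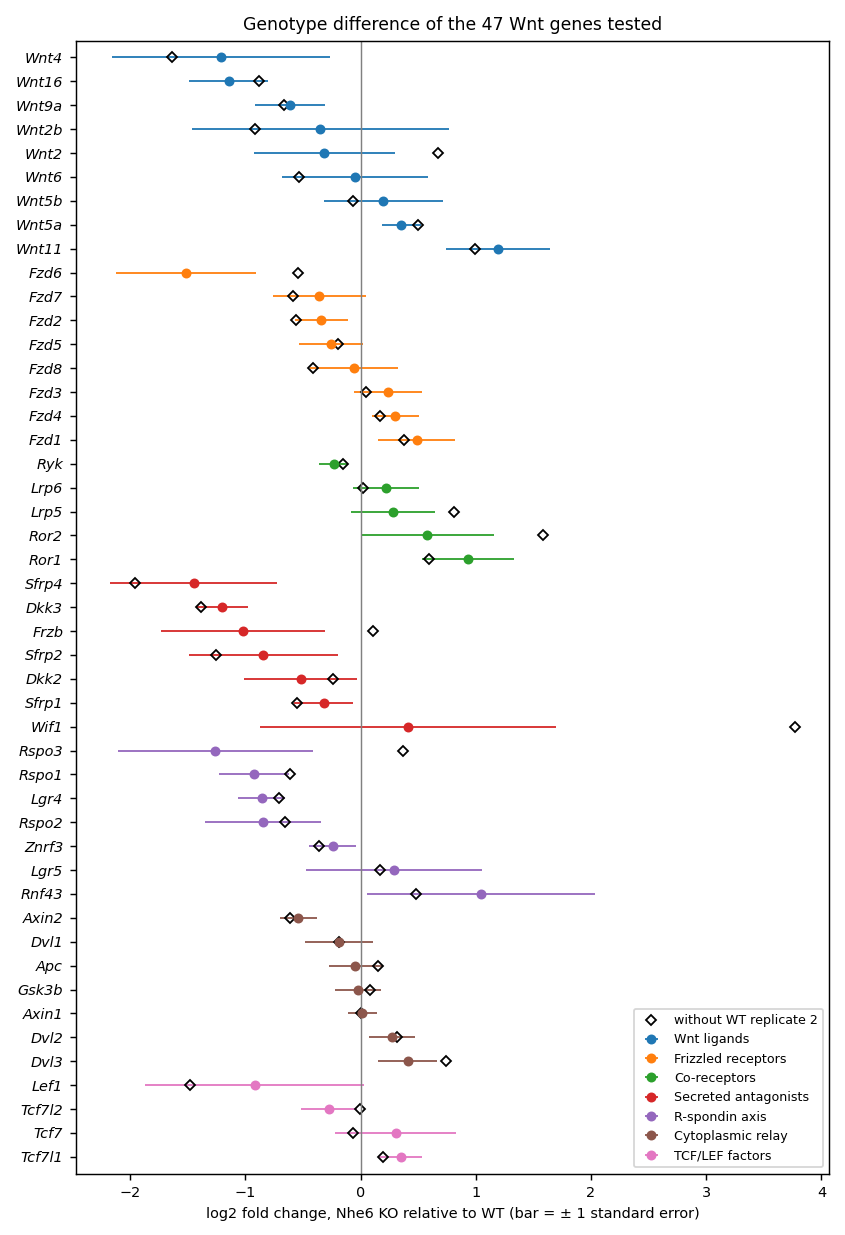
Log2 fold changes of the 47 tested Wnt genes (*Nhe6*-knockout relative to wildtype, filled points with bars of 1 SE from the edgeR fit of 6 libraries), coloured by role, with open diamonds for the fit without wildtype replicate 2. *Dkk3*, *Lgr4*, *Axin2*, *Rspo1* and *Wnt16* keep negative values in both fits, while *Frzb* and *Rspo3* cross 0.

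Wildtype replicate 2 was the highest or the lowest of the 6 libraries in 31 of the 47 Wnt genes (66.0%), against 53.3% of all genes tested. Left out, it changed the calls among the Wnt genes: 6 of 48 tested genes then passed an adjusted p of 0.05 in edgeR, against 2.88% of all genes (1.26% lower and 1.62% higher). At an unadjusted p under 0.05 there were 17 of 48, against 19.5% of all genes. Between the remaining libraries 20 of the 47 genes did not overlap, against 38.3% of all genes. Of the 6 genes, *Dkk3* (log2 fold change -1.38, edgeR adjusted p = 0.0205), *Sfrp4* (-1.96, adjusted p = 0.0105) and *Lef1* (-1.48, adjusted p = 0.0414) were lower in *Nhe6*-knockout cells. *Ror2*, which encodes the second WNT5A receptor of its family, had 337, 365 and 387 normalized reads in *Nhe6*-knockout and 133, 487 and 108 in wildtype replicates, and was higher in *Nhe6*-knockout cells without wildtype replicate 2 (1.58, adjusted p = 0.0244). *Wif1*, the Wnt inhibitory factor, had 58.4, 96.7 and 141 normalized reads in *Nhe6*-knockout and 9.78, 208 and 4.28 in wildtype replicates, and was likewise higher (3.77, adjusted p = 0.0379). *Dvl3* had 1208, 1246 and 1348 normalized reads in *Nhe6*-knockout and 705, 1347 and 810.1 in wildtype replicates, and was higher as well (0.74, adjusted p = 0.0495). In *Sfrp4*, *Lef1*, *Ror2* and *Wif1*, wildtype replicate 2 lay outside the *Nhe6*-knockout range on the side opposite to wildtype replicates 1 and 3; in *Dvl3* it lay within that range. These calls rest on 2 wildtype cultures. When *Nhe6*-knockout replicates 1 and 2 were in addition summed as 1 library, no Wnt gene passed in edgeR, against 0.00736% of all genes (*Sfrp4* adjusted p = 0.0848, *Dkk3* and *Ror2* both 0.139). In that fit 12 of 48 had an unadjusted p under 0.05, against 12.1% of all genes. With that sum and all wildtype libraries no Wnt gene passed either, against 0.00731% of all genes. There 4 of 48 had an unadjusted p under 0.05, against 6.19% of all genes.

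**Figure D4:**
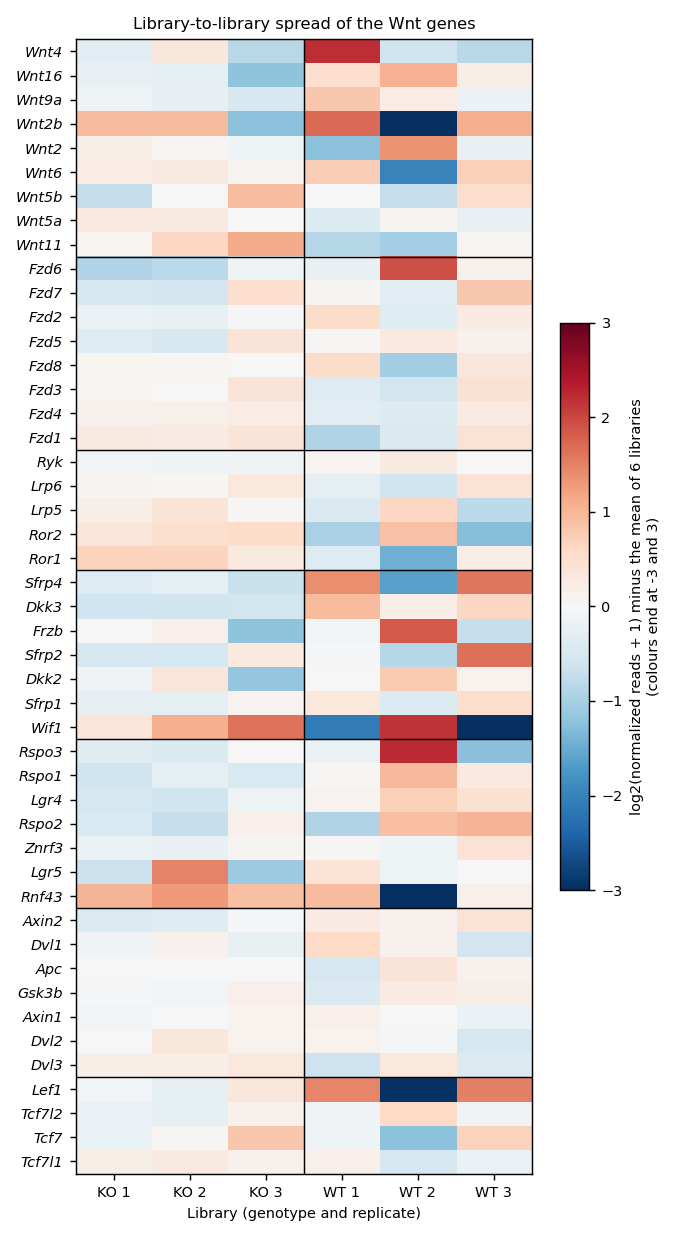
Heat map of the 47 tested Wnt genes (one line of cells per gene, by role) in the 6 libraries, coloured by log2(normalized reads + 1) minus the mean of that gene over the 6 libraries, with the colour scale ending at -3 and 3. The column of wildtype replicate 2 carries many of the deepest colours, with *Wnt2b*, *Rnf43*, *Lef1* and *Sfrp4* low and *Rspo3*, *Fzd6* and *Frzb* high, and *Nhe6*-knockout replicates 1 and 2 look alike.

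The other genes of the pathway were taken from 7 lists with 118 genes, 88 of them tested, with 44 negative and 44 positive log2 fold changes and a median of 0.01. None passed an adjusted p of 0.05 in edgeR. At an unadjusted p under 0.05 there were 12 (13.6%, against 11.8% of all genes), 3 lower and 9 higher in *Nhe6*-knockout cells, and 17 did not overlap between genotypes (19.3%, against 19.9%). DESeq2 called 4 (*Ptk7*, *Prickle1*, *Abcb1a* and *Apcdd1*), against 4.65% of all genes. Without wildtype replicate 2, edgeR called 3 of 91 tested (*Ptk7* and *Cd44* higher, *Slco1c1* lower), against 2.88% of all genes. *Ptk7* (chr17:46564471-46629504), a pseudokinase co-receptor of Wnt and planar cell polarity signalling, had 9297, 10670.3 and 13612 normalized reads in the *Nhe6*-knockout replicates and 4256, 5568 and 4222 in the wildtype replicates. The groups were far apart relative to their spread. The log2 fold change was 1.26 (SE 0.20), or 2.39-fold more in *Nhe6*-knockout cells, with an adjusted p of 0.0952 in edgeR, 7.06e-06 in DESeq2 and 0.0325 in edgeR without wildtype replicate 2. With *Nhe6*-knockout replicates 1 and 2 summed, the edgeR adjusted p of *Ptk7* was 0.46 with all wildtype libraries and 0.13 without wildtype replicate 2, and none of the other pathway genes passed in either analysis. The polarity genes *Prickle1* (938, 1023 and 1007 against 701, 730.2 and 688 normalized reads) and *Celsr2* (166, 231 and 175 against 128, 102 and 121) also had higher reads in every *Nhe6*-knockout library. Their log2 fold changes were 0.49 (SE 0.11, edgeR adjusted p = 0.17) and 0.70 (SE 0.24, adjusted p = 0.33).

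Of 22 tested cytoplasmic genes of these lists, 3 (13.6%) had an unadjusted p under 0.05 in edgeR, and of 14 tested nuclear genes 2 (14.3%). Of all genes, 11.8% did, 6.14% with a positive log2 fold change, so both shares were near the background. All 5 genes had positive log2 fold changes. They were *Apc2*, a relative of APC (0.69, SE 0.22), *Tnik*, a kinase of the TCF4 complex (0.78, SE 0.30), *Tnks*, the tankyrase that marks axin for degradation (0.59, SE 0.19), *Bcl9l*, a β-catenin co-activator (0.70, SE 0.22), and *Ctnnbip1*, which keeps β-catenin from TCF (0.61, SE 0.17). Their edgeR adjusted p values were 0.31, 0.39, 0.29, 0.29 and 0.25. Genes of another strand overlap the exons of *Apc2*, *Bcl9l*, *Ctnnbip1* and *Tnks*, and also those of *Ctnnb1* below. *Ctnnb1*, the gene for β-catenin, had 26061, 24659.8 and 25301 normalized reads in *Nhe6*-knockout and 27502, 34385 and 30930.2 in wildtype replicates. All *Nhe6*-knockout libraries were lower, by a log2 fold change of -0.29 (SE 0.16, edgeR adjusted p = 0.56).

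Of 14 tested target genes of canonical signalling, 7 had negative and 7 positive log2 fold changes (median 0.02, but 0.61 without wildtype replicate 2). *Apcdd1*, a target that encodes a membrane-bound Wnt inhibitor, had 124, 140.4 and 117 normalized reads in *Nhe6*-knockout and 207, 204 and 279 in wildtype replicates. The genotypes did not overlap (log2 fold change -0.85, SE 0.22, adjusted p = 0.21 in edgeR and 0.0237 in DESeq2). *Bambi*, a target that encodes a decoy receptor for TGF-β family ligands, was higher in every *Nhe6*-knockout library, at 251, 231 and 359 against 178, 197 and 185 normalized reads (log2 fold change 0.58, SE 0.23, edgeR adjusted p = 0.39). Of 8 tested genes that Wnt signalling is known to control in barrier endothelium, 3 had negative and 5 positive log2 fold changes (median 0.15, and -0.14 without wildtype replicate 2). The values of the 8 ranged from -3.21 to 0.48. *Slco1c1*, lower in *Nhe6*-knockout cells, was the gene of this list called in edgeR without wildtype replicate 2. *Abcb1a*, the gene for the efflux pump P-glycoprotein, had 781, 791 and 568 normalized reads in the *Nhe6*-knockout replicates and 1299, 1315 and 1873 in the wildtype replicates. Wildtype libraries were all higher (log2 fold change -1.07, SE 0.21, adjusted p = 0.12 in edgeR and 0.00131 in DESeq2). *Cldn5* and *Sox17*, 2 further genes of this list, had no read in any library.

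Of the secretion and co-receptor machinery, *Wls*, which carries Wnts to the cell surface, had 16658, 15863 and 22251 normalized reads in *Nhe6*-knockout and 17049.9, 55516 and 28092 in wildtype replicates. The wildtype values were spread over a wide range with replicate 2 the highest (log2 fold change -0.88, SE 0.44, and -0.31 without that library). *Porcn*, the enzyme that attaches the lipid to Wnts, overlapped between genotypes (log2 fold change -0.06, SE 0.22). *Kremen1*, a receptor for DKK proteins, had lower normalized reads in every *Nhe6*-knockout library (1931, 1968 and 1771 against 2500.0, 2637 and 2201; log2 fold change -0.37, SE 0.12, edgeR adjusted p = 0.29). The partners of FZD4 and of WNT7 ligands in barrier endothelium, *Tspan12*, *Adgra2* and *Reck*, had log2 fold changes of -0.23 (SE 0.39), 0.34 (SE 0.16) and -0.27 (SE 0.26). *Ndp*, the gene of the FZD4 ligand norrin, had at most 27.5 normalized reads and was not tested.

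**Figure D5:**
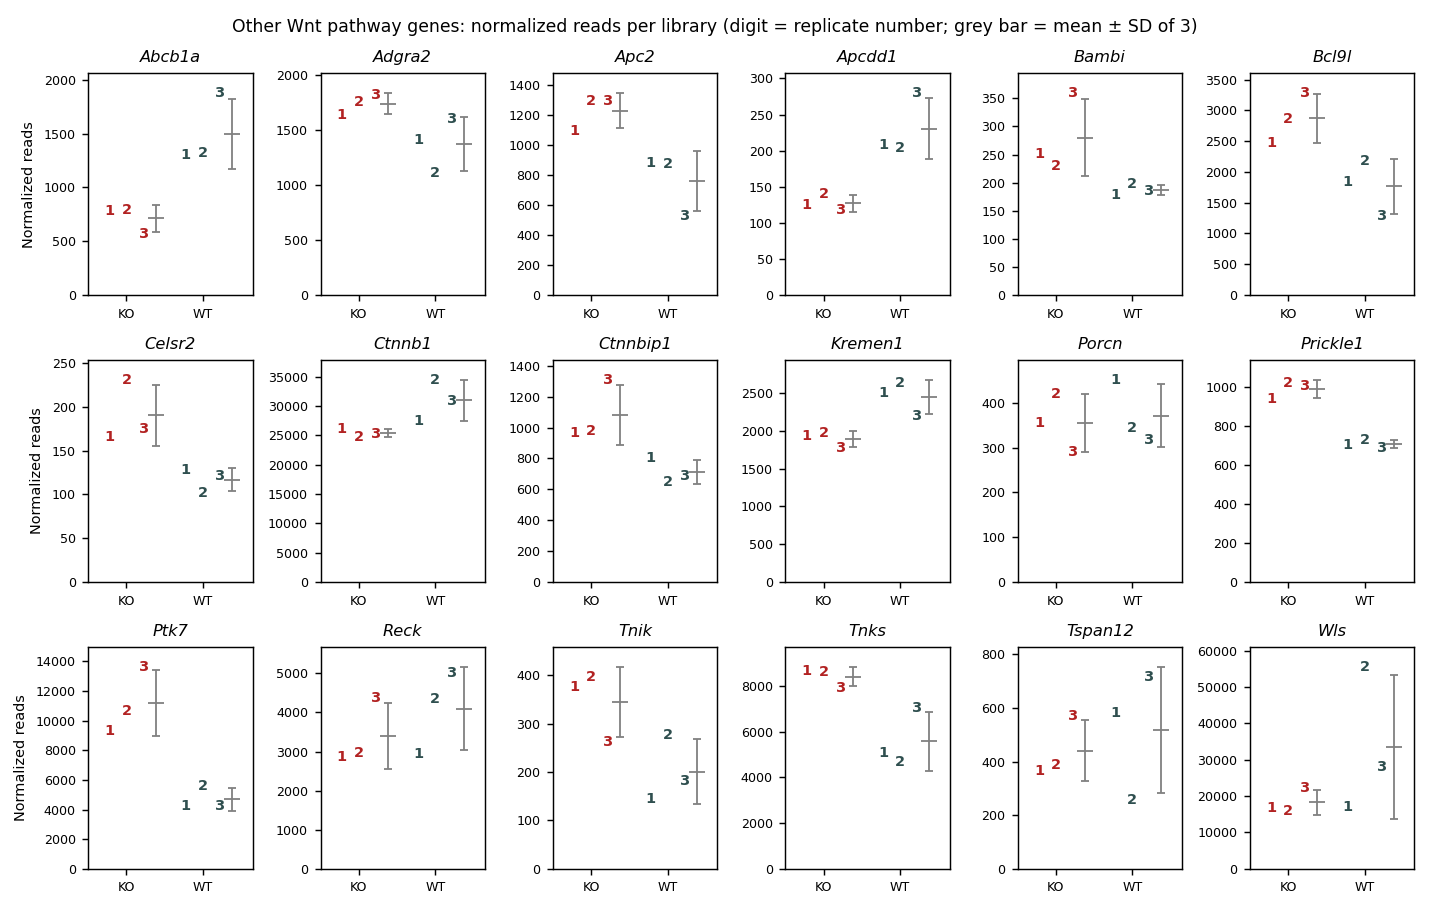
Normalized reads of 18 other Wnt pathway genes in each library, 1 panel per gene with its own axis from 0, digits marking the replicate number and grey bars the mean ± SD of 3 libraries. *Ptk7*, *Prickle1* and *Celsr2* lie higher and *Abcb1a*, *Apcdd1*, *Kremen1* and *Ctnnb1* lower in all 3 *Nhe6*-knockout libraries, and wildtype replicate 2 stands out for *Wls* at 55516.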

How the data were processed

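RNA of 3 *Nhe6*-knockout and 3 wildtype endothelial cultures was sequenced from poly(A)-enriched, stranded libraries with 75 cycles. The authors deposited a table of raw counts, the number of reads per gene symbol and library, without normalization. The submitters' processing notes name bcl2fastq 2.20.0.422, STAR 2.7.7a, HTSeq 0.13.5, DESeq2 1.26.0 and mm10; the gene annotation and the strand setting of the counting are not given in the sources used here. Besides the genes marked above, opposite-strand genes overlap exons of *Wnt5a*, *Fzd5*, *Sfrp2*, *Dvl1*, *Dvl2*, *Tcf7l1*, *Abcb1a* and *Adgra2*, among others. The 5 summary lines of the table, which name no gene, held 21.5% to 23.6% of the reads of a library and were left out. Genes were filtered with filterByExpr (minimum count 10), normalized by TMM (factors 0.976 to 1.03) and compared in 1 fit of all 6 libraries with edgeR 4.0.16 (R 4.3.3; quasi-likelihood, two-sided), with genotype as the only term and Benjamini-Hochberg adjustment over all genes tested. The SE is the log2 fold change divided by the square root of F. With 3 against 3 libraries, an exact permutation test of 1 gene cannot go below p = 0.1. Levels per length used exon unions of GENCODE M21 (GRCm38), and promoter sequences came from RefSeq (GRCm38.p6). Alternatives were DESeq2 size factors, upper-quartile normalization, all genes with a read, only genes with 10 or more reads in each library, DESeq2 1.42.0, limma-voom (limma 3.58.1), a replicate block, leaving out each library and summing *Nhe6*-knockout replicates 1 and 2; the sum without wildtype replicate 2 was added after seeing the data. The tests were run on simulated counts with known changes. Recovery of those changes was required only at a small fixed spread, and not at the spread of these libraries.

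The Wnt genes and the other lists were chosen with earlier results of these data known. Library values are given for Wnt genes without overlap between genotypes, with an unadjusted p under 0.05, or with a mean of at least 100 normalized reads in 1 genotype and an absolute log2 fold change of at least 1, and for *Wnt2b*, *Lef1*, *Ror2*, *Wif1* and *Dvl3*, which were added after their values were seen. Of the 7 other pathway lists, genes with an unadjusted p under 0.05 and *Ctnnb1*, *Wls*, *Porcn*, *Ndp*, *Tspan12*, *Adgra2* and *Reck* are named. *Cd44* and *Slco1c1* were added after their results without wildtype replicate 2 were seen. The check of the targeted gene is not reported here. Marker lists of 7 cell types and of the cell cycle were summed per library. Sums of the endothelial, melanocyte, epithelial and otic fibrocyte lists overlapped between genotypes, as did those of the fibroblast, mural and macrophage lists.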

Additional observations from a re-analysis of the deposited data

How the results depend on the processing

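The count of Wnt genes past the adjusted p of 0.05, 0 in edgeR with all libraries, was 2 with DESeq2 and 0 to 6 when single libraries were left out, with 6 without wildtype replicate 2. At an unadjusted p under 0.05 the 7 Wnt genes became 4 with *Nhe6*-knockout replicates 1 and 2 summed, 12 with that sum and without wildtype replicate 2 (an analysis added after seeing the data), and 4 to 17 with single libraries left out (4 without *Nhe6*-knockout replicate 1 or 2, 17 without wildtype replicate 2, 13 without wildtype replicate 3). Genes without overlap, 7 with all libraries, numbered 9 to 20 with 1 library left out, where fewer libraries have to separate (15 without *Nhe6*-knockout replicate 3, and 14, 20 and 13 without wildtype replicates 1, 2 and 3). Of all genes, 19.9% did not overlap with all libraries and 38.3% without wildtype replicate 2. At an unadjusted p under 0.05 in edgeR, the shares of all genes were 11.8% with all libraries and 6.19% with the sum. They were 12.1% with the sum and without wildtype replicate 2, and 19.5% with only that library left out. Such shares were not computed with other single libraries left out, so those counts have no background beside them. For the other pathway genes, DESeq2 called 4, leaving out single libraries called 0 to 3, and at an unadjusted p under 0.05 the 12 became 7 with the sum and 9 to 25 with libraries left out (25 without wildtype replicate 2). Over the whole table the 9 calls became 21 without a filter, 21 with at least 10 counts in every library, 627 with DESeq2, 1 with the sum, 1 with the sum and without wildtype replicate 2, and 0 to 395 with libraries left out (1, 1 and 0 without *Nhe6*-knockout replicates 1, 2 and 3, and 4, 395 and 2 without wildtype replicates 1, 2 and 3). The causes were not tested.

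Of the 47 Wnt genes, 19 changed the sign of their log2 fold change in at least 1 alternative and 28 did not. With single libraries left out, 17 did: *Frzb* (-1.43 to 0.11), *Rspo3* (-1.75 to 0.36), *Wif1* (-0.15 to 3.77), *Wnt2b* (-0.91 to 0.37), *Wnt2* (-0.74 to 0.68), *Wnt4* (-1.67 to 0.55), *Wnt5b* (-0.36 to 0.51), *Wnt6* (-0.54 to 0.28), *Fzd7* (-0.79 to 0.019), *Fzd8* (-0.41 to 0.23), *Sfrp2* (-1.25 to 0.18), *Lgr5* (-1.03 to 0.69), *Apc* (-0.27 to 0.15), *Axin1* (-0.068 to 0.097), *Gsk3b* (-0.21 to 0.086), *Dvl1* (-0.45 to 0.12) and *Tcf7* (-0.065 to 0.85), as did the other pathway genes *Porcn* (-0.20 to 0.095) and *Tspan12* (-0.56 to 0.068). Signs turned without wildtype replicate 2 for *Frzb*, *Rspo3*, *Wnt2*, *Wnt5b*, *Apc*, *Gsk3b* and *Tcf7*. Limma-voom gave 0.0079 for *Lef1*, 0.45 for *Wnt2b*, 0.081 for *Wnt2*, 0.37 for *Wnt6*, 0.092 for *Fzd8* and -0.18 for *Lgr5*, and upper-quartile normalization gave 0.0099 for *Gsk3b*. The sum gave 0.0099 for *Gsk3b*. The sum without wildtype replicate 2 gave 0.43 for *Rspo3*, 0.64 for *Wnt2*, 0.15 for *Apc*, 0.12 for *Gsk3b*, 0.061 for *Tcf7l2* and -0.0043 for *Lgr5*. Of all values of the 47 genes over the alternatives, 647 kept their direction and side of the threshold, 8 passed it and 46 changed sign. No level per length of the 47 genes moved beyond its spread without TMM. The TMM factors spanned only 0.976 to 1.03, so this comparison could hardly have come out otherwise.

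Same-numbered libraries did not deviate together in every pair (correlations of 0.21, -0.19 and 0.11), so the replicate numbers were not taken to pair the cultures. With the replicate block, 0 Wnt genes passed the adjusted p of 0.05, 6 had an unadjusted p under 0.05, 13 of the other pathway genes did, and 2 genes were called over the whole table. The share of all genes at an unadjusted p under 0.05 was not computed with the block. The block turned the sign of *Wnt2* (0.061), *Wnt6* (0.30), *Fzd8* (0.082), *Gsk3b* (0.0013) and *Lgr5* (-0.19). With 3 cultures of pooled mice per genotype, and *Nhe6*-knockout replicates 1 and 2 nearly alike, the spread of *Nhe6*-knockout cultures rests on few independent values.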
